A study of Mus musculus with 8 samples.

Results

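Glycolysis genes and genes of the response to low oxygen were followed in cultured mouse cardiac adipose-derived stem cells (cADSC), the plastic-adherent stromal cells of the fat around the heart. The gene set was a named list of 34 members: 16 enzymes of glycolysis, 3 regulators of glycolytic flux, 3 mitochondrial or mitophagy genes, 4 genes of oxygen sensing and its feedback, 6 targets with roles in pH, matrix, stress and secretion, and the hypoxia-inducible factor subunits Hif1a and Epas1. Members were taken by gene name, with no measured value in the rule. All 34 were found among the 52636 genes of the deposited tables, and all 34 passed the minimum level that 17529 genes passed.

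RNA-seq was performed on 4 groups of cADSC cultures. These were P2Y2 KO cells given UTP, P2Y2 KO cells left untreated, WT cells given UTP and WT cells left untreated. UTP is a nucleotide agonist of the P2Y2 receptor, and it was added at 100 µM every day for 7 days; all cultures were kept for 7 days in serum-containing medium. The sources differ on the gas phase: the labels give air with added CO2, whereas the methods name oxygen in place of air, and the oxygen level of the cultures is therefore not settled. Each group had 2 libraries, and each library was a pool of RNA from 2 cultures, so that the spread between libraries is the spread between pools. Per the study's methods, the mice were male and female and 12 to 16 weeks old, and the knockout was carried on a CD1/C57BL/6J background, whereas the labels give C57BL/6J for every sample. Strain background and genotype can therefore not be told apart.

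Cells turn glucose into pyruvate and lactate through glycolysis, and most of its steps can be served by several isozymes encoded by separate genes. When oxygen falls, prolyl hydroxylases (Egln1, Egln3) stop marking the alpha subunits HIF-1alpha (Hif1a) and HIF-2alpha (Epas1) for degradation, and the stabilised subunits bind DNA at a short core sequence near genes of glycolysis, mitophagy, pH control and secreted factors. Because that control acts on the protein, the mRNA level of a HIF subunit does not report its activity. No library is labelled as coming from cells held at low oxygen, and no metabolite or protein is part of these data.

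The deposited values were estimated counts that had been scaled to nearly the same total in every library, between 20008555 and 20015454, called scaled counts here. With the scaling undone the totals were 18599486 to 22018287, and a count of 3 was equal to 0.15 CPM, the usual unit for a count relative to the total of its library. P2ry2, the targeted gene, had 274 and 301 scaled counts in KO libraries with UTP and 280 and 311 in untreated KO libraries, against 328 and 328 in WT libraries with UTP and 362 and 347 in untreated WT libraries. Its reads were thus fewer but not absent in the libraries labelled P2Y2 KO, and whether the counted reads fall outside the deleted part was not tested; "KO" is used for that label. The defining markers of the cells were present, with Thy1 at 91.8 CPM or more, Eng at 147 CPM or more and Cd44 at 188 CPM or more in every library. Dpp4, the gene of CD26, which the study used in flow cytometry as a fibroblast marker that most of the isolated cells lacked, was between 21.5 and 58.9 CPM.

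Several other cell type signals moved with the groups. The summed level of 20 macrophage markers was 3798 and 3965 CPM in KO libraries with UTP, 5465 and 4767 CPM in untreated KO libraries, 1879 and 1784 CPM in WT libraries with UTP and 4116 and 2967 CPM in untreated WT libraries. The summed level of 12 cell cycle genes was 870 to 1109 CPM in the 4 KO libraries and 1333 to 1395 CPM in the 4 WT libraries, and that of 6 fat cell markers was 154 to 316 CPM in KO libraries and 101 to 133 CPM in WT libraries. Krt8, an epithelial keratin gene, had 108 and 72 scaled counts in KO libraries with UTP and 103 and 76 in untreated KO libraries, against 1125 and 1092 in WT libraries with UTP and 60 and 867 in untreated WT libraries, so untreated WT pool 1 stood apart from the other WT pools. Krt8 did not stand for its marker list. The summed level of 8 epithelial and mesothelial markers was 799 to 960 CPM in KO libraries and 519 to 890 CPM in WT libraries. By edgeR, 2 of the 8 were higher and 2 lower in untreated KO, and 0 were higher and 4 lower in KO with UTP. The pools also differed in their sex: Xist, transcribed from the inactive X chromosome, had 3 and 2 scaled counts in the KO pools numbered 1, with and without UTP, and at least 4304 in the other 6 pools, whereas the Y-linked gene Ddx3y had 0 in untreated WT pool 1 and 447 to 1818 in the others. The part of these differences in the results on the 34 genes was not tested.

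The promoters of the members are shown first, because HIF binds a short core sequence near genes of the kinds listed. No response to HIF was measured here. The list was drawn up by name for glycolysis and the response to hypoxia, and it holds genes known as HIF targets. A high share of matches among its members is therefore not independent evidence. RefSeq promoter windows (GRCm38.p6, from 250 bases before to 50 bases after a start site) were matched by symbol for 31 of the 34 members, with 46 windows in all, and Bnip3l, Ndrg1 and Epas1 were not matched. The core of the hypoxia response element was searched as ACGTG or GCGTG and, for the other strand, as CACGT or CACGC. A match was found in 78.3% of the 46 member windows and in 43.8% of all 32851 windows, and 26 member windows held 2 or more matches. By gene, 28 of 31 members (90.3%) had a match in at least 1 window, against 46.7% of 27025 genes in the table. The windows were not matched for base composition or for the level of the gene, so the shares are a description. The 250 bases before the start site are printed below for 6 members that passed the test between genotypes in at least 1 comparison, 5′ to 3′ on the gene's strand, with matches in capitals. They are those of Pfkl (chr10:78009808-78010057, minus strand), Aldoc (chr11:78322823-78323072, plus strand), Pdk1 (chr2:71872974-71873223, plus strand), Bnip3 (chr7:138909507-138909756, minus strand), Car9 (chr4:43506776-43507025, plus strand) and Eno2 (chr6:124769674-124769923, minus strand).
Pfkl: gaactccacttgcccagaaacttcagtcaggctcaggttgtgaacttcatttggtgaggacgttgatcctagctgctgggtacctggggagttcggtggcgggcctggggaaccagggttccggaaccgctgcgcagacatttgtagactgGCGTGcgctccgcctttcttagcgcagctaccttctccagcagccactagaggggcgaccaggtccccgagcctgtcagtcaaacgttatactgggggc
Aldoc: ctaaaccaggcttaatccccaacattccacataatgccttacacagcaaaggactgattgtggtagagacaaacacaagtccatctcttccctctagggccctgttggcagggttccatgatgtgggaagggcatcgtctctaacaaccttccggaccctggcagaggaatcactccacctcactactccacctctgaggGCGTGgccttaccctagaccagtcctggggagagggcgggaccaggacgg
Pdk1: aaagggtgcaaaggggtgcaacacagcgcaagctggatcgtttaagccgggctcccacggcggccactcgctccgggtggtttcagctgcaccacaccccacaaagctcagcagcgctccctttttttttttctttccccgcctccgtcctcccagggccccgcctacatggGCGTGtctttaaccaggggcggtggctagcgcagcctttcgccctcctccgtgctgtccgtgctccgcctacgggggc
Bnip3: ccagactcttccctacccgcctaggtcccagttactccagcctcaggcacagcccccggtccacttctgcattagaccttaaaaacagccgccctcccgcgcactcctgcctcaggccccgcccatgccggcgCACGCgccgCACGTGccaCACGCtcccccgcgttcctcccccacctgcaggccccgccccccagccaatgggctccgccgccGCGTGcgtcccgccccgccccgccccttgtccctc
Car9: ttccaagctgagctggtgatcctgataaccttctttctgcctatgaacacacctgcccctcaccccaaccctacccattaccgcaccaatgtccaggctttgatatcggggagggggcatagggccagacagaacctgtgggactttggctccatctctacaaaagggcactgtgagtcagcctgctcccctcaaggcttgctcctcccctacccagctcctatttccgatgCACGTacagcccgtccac
Eno2: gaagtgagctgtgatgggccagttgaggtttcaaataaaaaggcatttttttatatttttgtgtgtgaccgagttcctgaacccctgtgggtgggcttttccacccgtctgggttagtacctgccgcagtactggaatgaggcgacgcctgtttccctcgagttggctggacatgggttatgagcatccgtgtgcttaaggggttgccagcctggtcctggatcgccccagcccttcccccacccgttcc
The Bnip3 window had 5 matches, which begin 117, 108, 107, 99 and 35 bases before the start, and the matches at 108 and 107 overlap as the palindrome CACGTG. The printed bases of Pfkl, Aldoc, Pdk1 and Car9 hold 1 whole match each, beginning 99, 50, 78 and 18 bases before the start. The full Pdk1 window had 2 matches, since another begins 2 bases before the start and runs past the printed bases, and the full Aldoc window had 3, of which 2 lie after the start. The Eno2 window had none. A match or its absence says only that these letters are or are not in the window. Of the 12 members that passed the test in either genotype comparison, 9 were in the promoter table and 8 had a match, and of the 22 others, 22 were in the table and 20 had a match.

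The 34 genes covered a wide range of levels. Levels per kilobase use the union of all annotated exons of a gene, which can be longer than the mRNA that the cells make. The order between genes therefore depends on that length. By CPM without the length, Pkm (1305 CPM) was highest, and Gapdh (867 CPM) was above Aldoa (770 CPM) and Adm (336 CPM). Per kilobase of exon and averaged over the 8 libraries, Aldoa (265 CPM per kb) and Pkm (261 CPM per kb), which encode the main aldolase and pyruvate kinase of these cells, stood highest, with ranges over libraries of 239 to 298 and 244 to 277 that overlap. Gapdh (210), the hormone gene Adm (208) and Ldha (190 CPM per kb), the gene of the lactate dehydrogenase A subunit, came next, with ranges of 197 to 219, 169 to 239 and 180 to 205. Gapdh was above Ldha in every library. The place of Adm relative to each of them differed between libraries. Eno1 (132 CPM per kb) was above Tpi1 (115 CPM per kb) in every library, at 124 to 143 against 107 to 123, and Tpi1 overlapped Pgk1 (103 CPM per kb, 96.1 to 110). At the low end stood Pfkfb4 (3.95), Pdk1 (3.61), Car9 (1.40) and Ankrd37 (0.893 CPM per kb). The last of these had 19 to 51 scaled counts, and Car9 had 41 to 99.

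Within the families, 1 isozyme dominated aldolase and enolase mRNA, whereas hexokinase and phosphofructokinase mRNA were shared. Of the CPM per kb of each family, Aldoa made up 97.4% to 98.0% over the group means and Eno1 94.8% to 95.6%. Hk1 and Hk2, whose products phosphorylate glucose, were near equal by this measure. The Hk1 share was 56.7% in KO libraries with UTP, 57.9% in untreated KO libraries, 51.9% in WT libraries with UTP and 53.5% in untreated WT libraries. The exon lengths used were 8.53 kb for Hk1 and 5.97 kb for Hk2, and the shares depend on them. In scaled counts, Hk1 was above Hk2 in every library. P4ha1 made up 77.7% to 78.7% of the 2 collagen prolyl 4-hydroxylase alpha subunit genes. The shares of Pfkl and Epas1 are given with the comparison of genotypes.

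**Figure D1:**
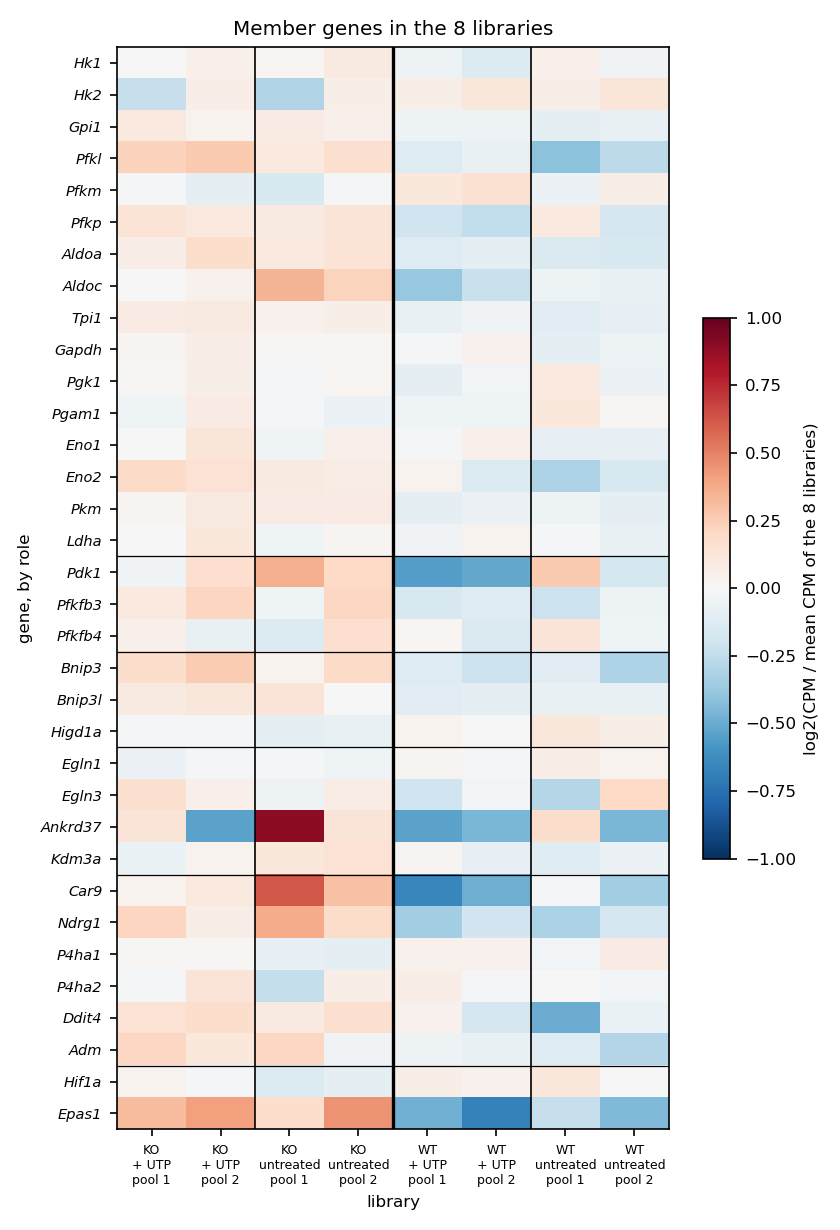
Level of the 34 genes in each of the 8 libraries, as log2 of the CPM over the gene's mean CPM of the 8 libraries; rows are genes grouped by role, columns are libraries (2 pools per group), and red is above and blue below the gene's mean. Epas1, Pfkl, Ndrg1 and Aldoc are above their mean or at it in the 4 KO libraries and below it in the 4 WT libraries, and most glycolytic enzymes are pale throughout.

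The first question was whether UTP moved these genes, since the study asked which genes UTP regulates in cADSC and whether P2Y2 is needed for its action, and treated a response to hypoxia as a gene function of interest. By edgeR's quasi-likelihood test with Benjamini-Hochberg adjustment over all 17529 genes, 0 of 34 members passed the threshold of 0.05 with UTP in WT cADSC, where 1.22% of all genes did (214 genes), and 0 of 34 passed in KO cADSC, where 0.0342% did (6 genes). At an unadjusted p under 0.05 the counts were 4 of 34 in WT and 1 of 34 in KO, beside 17.7% and 7.56% of all genes. DESeq2 called 1 member in WT (Pdk1) and 0 in KO, and limma on log2(CPM + 1) called 0 and 0. The median log2 fold change of the 34 genes was 0.04 in KO, with a range of -0.71 to 0.14, and 0 in WT, with a range of -0.59 to 0.24; over all genes the medians were 0 and 0.01.

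The intervals show how large an effect these pools could have missed, under 1 estimate of the spread shared by the 4 groups. Over the members, the 2 untreated WT pools differed by a median of 0.12 log2 units, against 0.06 to 0.07 in the other groups. The intervals in WT may therefore be too narrow. The 95% interval of the UTP effect lay inside a 2-fold change in either direction for 33 of the 34 members in KO and for 33 in WT, and inside a 1.5-fold change for 32 and 31. The member outside 2-fold was Ankrd37 in both genotypes. The median of the intervals' reach on either side was 0.17 log2 units in both genotypes. The study's own kind of rule, a ratio of group means above 2 or below 0.5, was passed by 0 of 34 members in KO (1.36% of the genes it was applied to) and by 0 of 34 in WT (3.08%). The ratios of the members lay between 0.605 (Ankrd37) and 1.1 (P4ha2) in KO, and between 0.666 (Pdk1) and 1.18 (Pfkl) in WT.

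**Figure D2:**
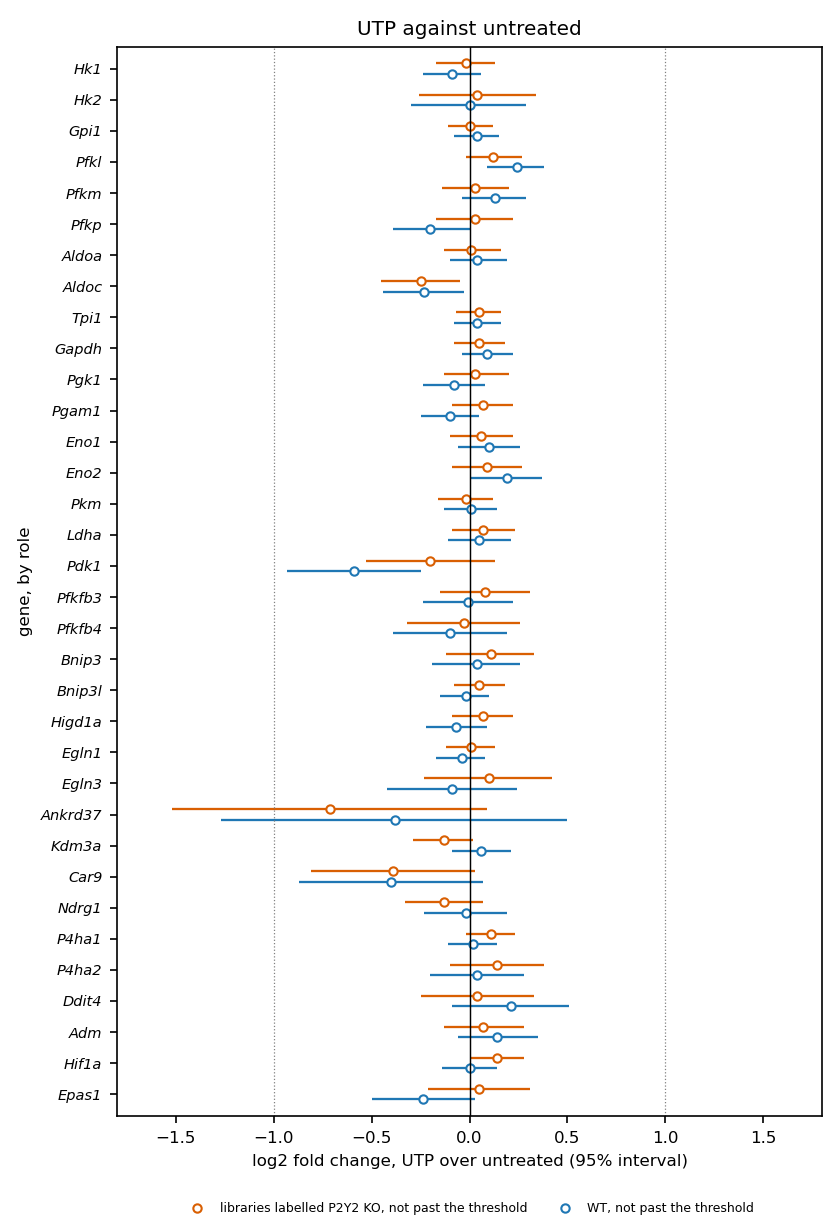
Log2 fold change of UTP over untreated for each of the 34 genes, with its 95% interval from the edgeR fit (2 pools per group), for KO libraries (orange) and WT libraries (blue); open points did not pass the adjusted threshold and dotted lines mark a 2-fold change. No point is filled, and the intervals of 33 genes stay inside the dotted lines in each genotype.

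Pdk1 was the member with the lowest ratio under UTP in WT cADSC. It encodes pyruvate dehydrogenase kinase 1, which holds back the entry of pyruvate into the mitochondrial cycle. It had 549 and 633 scaled counts in KO libraries with UTP and 721 and 647 in untreated KO libraries, and 385 and 395 in WT libraries with UTP, against 673 and 498 in untreated WT libraries. The UTP libraries were below the untreated ones in each genotype without overlap, and the untreated WT pools stood far apart. Separation of 2 pools from 2 was common among the 34 members. With UTP, 10 members lay below and 9 above without overlap in WT, and 5 below and 7 above in KO. Ankrd37 is among those below in KO only through slightly different library totals. KO pool 1 with UTP and untreated KO pool 2 had the same 30 scaled counts of it. The share over all genes is not given, so a lack of overlap under UTP, here and below, is only a description. The log2 fold change was -0.20 ± 0.14 in KO (SE, n = 2 pools per group, edgeR adjusted p = 0.855) and -0.59 ± 0.15 in WT (edgeR adjusted p = 0.105). Over the 16 other settings tried, the WT value lay between -0.80 and -0.34 and passed in 3 of them: with DESeq2, with no minimum level, and without untreated WT pool 2. The difference of the UTP effects, KO minus WT, was 0.38 with a 95% interval of -0.09 to 0.86.

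Car9 and Ankrd37 were the other low members under UTP. Car9, a membrane carbonic anhydrase that acts on pH outside the cell, had 66 and 69 scaled counts in KO libraries with UTP, 99 and 79 in untreated KO libraries, 41 and 46 in WT libraries with UTP and 64 and 51 in untreated WT libraries. It was lower with UTP in each genotype with no overlap, by a log2 fold change of -0.39 ± 0.19 in KO and -0.40 ± 0.21 in WT (edgeR adjusted p = 0.693 and 0.351). Ankrd37, an ankyrin repeat protein gene used as a marker of HIF activity, had 30 and 19 scaled counts in KO libraries with UTP, 51 and 30 in untreated KO libraries, 19 and 20 in WT libraries with UTP and 31 and 20 in untreated WT libraries. The pools of a group differed as much as the groups, and the 95% interval of its UTP effect in KO ran from -1.52 to 0.09.

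Aldoc, the brain-type aldolase gene, had lower values with UTP in both genotypes. It had 407 and 416 scaled counts in KO libraries with UTP and 512 and 472 in untreated KO libraries, and 312 and 346 in WT libraries with UTP, against 390 and 384 in untreated WT libraries. The groups did not overlap within either genotype. The log2 fold change was -0.25 ± 0.09 in KO and -0.23 ± 0.09 in WT, and neither passed (edgeR adjusted p = 0.522 and 0.233). The difference between the 2 effects was -0.02, with a 95% interval of -0.30 to 0.27.

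The highest members under UTP were Pfkl, Ddit4 and Eno2 in WT and P4ha2, Hif1a and Pfkl in KO. Pfkl, the liver-type phosphofructokinase gene, had 2549 and 2596 scaled counts in KO libraries with UTP, against 2318 and 2430 in untreated KO libraries, and 1980 and 2069 in WT libraries with UTP, against 1633 and 1809 in untreated WT libraries. The UTP libraries lay above the untreated ones in each genotype, with a log2 fold change of 0.12 ± 0.06 in KO and 0.24 ± 0.06 in WT (edgeR adjusted p = 0.719 and 0.125). Ddit4, an inhibitor of mTORC1 signalling, had 610 and 622 scaled counts in KO libraries with UTP, 587 and 617 in untreated KO libraries, 569 and 493 in WT libraries with UTP and 392 and 527 in untreated WT libraries, and the treated and untreated groups overlapped in each genotype. P4ha2 had 2660 and 2952 scaled counts in KO libraries with UTP, 2278 and 2826 in untreated KO libraries, 2814 and 2669 in WT libraries with UTP and 2683 and 2651 in untreated WT libraries, again with overlap.

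No member's UTP effect was shown to differ between the genotypes. The test of the difference called 0 of 34 members and 0.0% of all genes, with a lowest adjusted p of 0.837 among the members (edgeR), and 0 of 34 were under an unadjusted p of 0.05. DESeq2 and limma also called 0. The 95% interval of the difference lay inside a 2-fold change for 33 members and inside a 1.5-fold change for 28.

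The second question was whether the genes differed between cells labelled P2Y2 KO and WT, apart from UTP. In untreated libraries 8 of 34 members (23.5%) were higher in KO and 0 were lower, where 20.7% of all genes passed, 10.5% higher and 10.2% lower. They were Pfkl, Aldoa, Aldoc, Eno2, Car9, Ndrg1, Adm and Epas1. With UTP, 9 of 34 (26.5%) were higher in KO and 0 were lower, where 17.4% of all genes passed, 9.52% higher and 7.9% lower. These were Pfkl, Pfkp, Aldoa, Aldoc, Pdk1, Bnip3, Bnip3l, Ndrg1 and Epas1. The share that passed in either direction was thus near that of all genes in untreated libraries. With UTP it was 26.5% beside 17.4%, an excess that was not tested, and DESeq2 called 6 members and 2062 of all genes there. The members that passed were higher in KO in each case. The median log2 fold change of the 34 genes was 0.14 in both comparisons, beside 0.02 over all genes in untreated libraries and 0 with UTP.

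Pfkl, Aldoa, Aldoc, Ndrg1 and Epas1 passed in both comparisons, which is 5 of 34 members, where 5.54% of all genes were higher in both. Over the 16 other settings (each library left out singly among them), Epas1 kept its call in 16 with UTP and 16 untreated, Pfkl in 14 and 16, Ndrg1 in 13 and 15, Aldoa in 10 and 10, and Aldoc in 7 and 11. Aldoc lost it with DESeq2 in both comparisons and with the replicate number as a block with UTP. Of the members that passed with UTP only, Pfkp and Pdk1 kept the call in 12 settings, Bnip3 in 11 and Bnip3l in 10, and of those that passed untreated only, Eno2 did in 10, Adm in 9 and Car9 in 6. The comparisons have no library in common but share 1 fit and its estimate of the spread. All 4 KO libraries lay above all 4 WT libraries for 15 members (15.2% of all genes), namely Gpi1, Pfkl, Aldoa, Aldoc, Tpi1, Eno2, Pkm, Pfkfb3, Bnip3, Bnip3l, Car9, Ndrg1, Ddit4, Adm and Epas1. The reverse held for 1 member, Higd1a (17.9% of all genes).

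**Figure D3:**
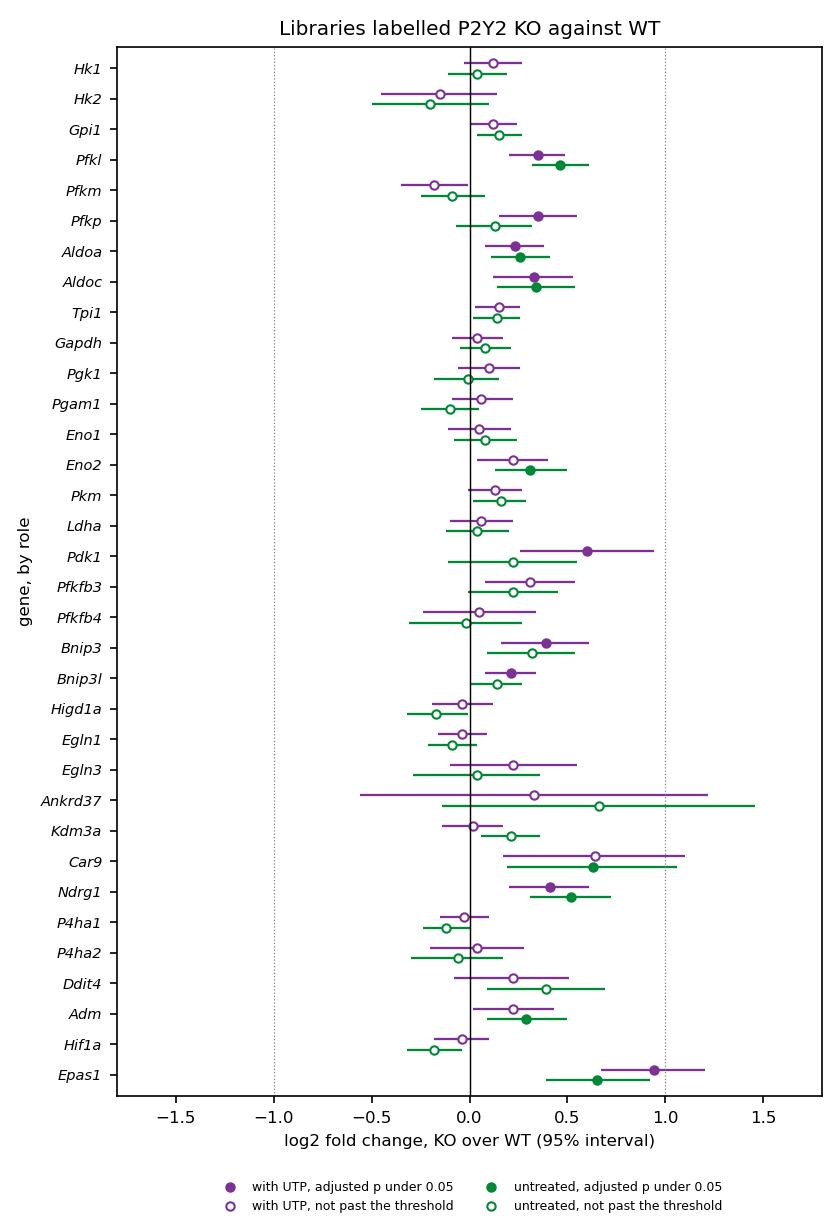
Log2 fold change of KO over WT for each of the 34 genes with its 95% interval from the edgeR fit (2 pools per group), with UTP (purple) and untreated (green); filled points have an adjusted p under 0.05 and dotted lines mark a 2-fold change. The filled points, 9 with UTP and 8 untreated, are all to the right of 0, and Epas1 is the highest of them in each comparison.

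Epas1 had the largest difference of the members that passed. It encodes HIF-2alpha, the HIF subunit known from endothelial cells, fibroblasts and the cells that make erythropoietin. It had 2812 and 3014 scaled counts in KO libraries with UTP and 2569 and 3098 in untreated KO libraries, against 1631 and 1425 in WT libraries with UTP and 1931 and 1668 in untreated WT libraries. Every KO library was above every WT library. The log2 fold change was 0.94 ± 0.12 with UTP (1.91-fold, edgeR adjusted p = 0.00284) and 0.65 ± 0.12 untreated (1.57-fold, edgeR adjusted p = 0.00899). Over the 16 other settings, the adjusted p-values were at most 0.0399 with UTP and 0.0383 untreated (edgeR, DESeq2 and limma settings).

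Hif1a, the other subunit gene, did not pass the test in either comparison. It had 3902 and 3770 scaled counts in KO libraries with UTP and 3456 and 3557 in untreated KO libraries, against 3978 and 3925 in WT libraries with UTP and 4115 and 3794 in untreated WT libraries. The KO libraries were the lower ones in each comparison without overlap, by little: the log2 fold change was -0.04 ± 0.06 with UTP and -0.18 ± 0.06 untreated, with edgeR (adjusted p = 0.709 and 0.0747). Of the summed CPM per kb of the 2 subunit genes, Epas1 made up 43.2% and 45.7% in KO libraries with UTP and 43.9% and 47.9% in untreated KO libraries, against 30.2% and 27.7% in WT libraries with UTP and 33.1% and 31.7% in untreated WT libraries. Hif1a mRNA was the larger part in each of the 8 libraries.

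Among the 16 enzymes, 4 passed in each comparison, beside 17.4% of all genes with UTP and 20.7% untreated. The sum over all 16 was 6029 and 6297 CPM in KO libraries with UTP and 6013 and 6147 CPM in untreated KO libraries, against 5631 and 5797 CPM in WT libraries with UTP and 5611 and 5541 CPM in untreated WT libraries. Pfkl, with the library values given above, was 0.35 ± 0.06 log2 units higher in KO with UTP and 0.46 ± 0.06 higher untreated (edgeR adjusted p = 0.0089 and 0.00429). Its isozyme Pfkm, the muscle-type gene, had 812 to 899 scaled counts in the 4 KO libraries and 870 to 1005 in the 4 WT libraries and did not pass. Pfkp, the platelet-type gene, had 2229 and 2165 scaled counts in KO libraries with UTP and 2138 and 2194 in untreated KO libraries, against 1756 and 1697 in WT libraries with UTP and 2162 and 1796 in untreated WT libraries. It was higher in KO with UTP (0.35 ± 0.09, edgeR adjusted p = 0.027), while untreated WT pool 1 lay among the KO values.

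The make-up of phosphofructokinase mRNA followed the genotype label. The exon lengths used were 6.68 kb for Pfkl, 3.34 kb for Pfkm and 13.4 kb for Pfkp, and the size of each share depends on them. Pfkl made up 47.6% ± 1.09 of the CPM per kb of the 3 genes in KO libraries with UTP and 46.0% ± 0.443 in untreated KO libraries, against 41.6% ± 0.546 in WT libraries with UTP and 38.1% ± 1.91 in untreated WT libraries (SD, n = 2 pools). Pfkm made up 32.2% ± 0.879 and 33.1% ± 0.959 in KO libraries with and without UTP, against 40.7% ± 0.199 and 40.1% ± 1.43 in WT libraries. Every KO library had a higher Pfkl share and a lower Pfkm share than every WT library, with no test made of either.

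**Figure D4:**
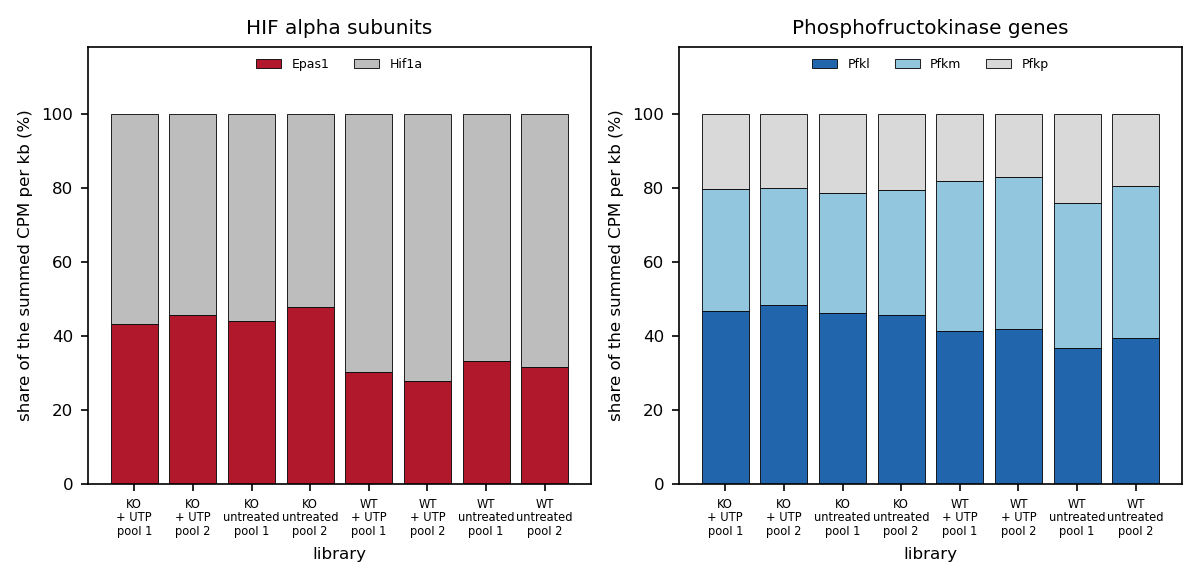
Share of each gene in the summed CPM per kb of its family in each library, for the HIF alpha subunits (left) and the phosphofructokinases (right); bars are libraries, 2 pools per group. The Epas1 share is 43.2% to 47.9% in the 4 KO libraries and 27.7% to 33.1% in the 4 WT libraries.

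Aldoa, the most abundant aldolase gene, had 16109 and 17376 scaled counts in KO libraries with UTP and 16461 and 16905 in untreated KO libraries, against 14111 and 14516 in WT libraries with UTP and 13941 and 13895 in untreated WT libraries. All KO values were above all WT values, by 0.23 ± 0.06 log2 units with UTP and 0.26 ± 0.06 untreated (edgeR adjusted p = 0.0415 and 0.0259). Aldoc was also higher in KO, by 0.33 ± 0.09 with UTP and 0.34 ± 0.09 untreated (edgeR adjusted p = 0.0384 and 0.0284), so that the KO libraries with UTP and the untreated WT libraries were close, at 407 and 416 against 390 and 384 scaled counts. Eno2, the neuron-type enolase gene, had 728 and 705 scaled counts in KO libraries with UTP and 679 and 672 in untreated KO libraries, against 654 and 581 in WT libraries with UTP and 514 and 572 in untreated WT libraries. It passed untreated (0.31 ± 0.08, edgeR adjusted p = 0.0296) and not with UTP (0.22 ± 0.08, edgeR adjusted p = 0.0948).

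The other glycolytic enzymes held within narrow limits. Gapdh had 16281 to 18154 scaled counts over the 8 libraries, Pkm 24373 to 27744, Ldha 11920 to 13558, Eno1 13382 to 15412, Tpi1 5871 to 6752, Gpi1 8213 to 9387, Pgk1 4314 to 4922, Pgam1 2181 to 2449, Hk1 2289 to 2664 and Hk2 1168 to 1568. Their coefficients of variation over the 8 libraries were between 3.59% (Gapdh) and 5.58% (Pkm), apart from 10.6% for Hk2. The Hk2 spread lay within the KO groups, where pools numbered 1 had 1229 and 1168 scaled counts with and without UTP and pools numbered 2 had 1506 and 1498. Tpi1, Gpi1 and Pkm were higher in all 4 KO libraries than in all 4 WT libraries, with log2 fold changes of 0.12 to 0.16 that did not pass (edgeR adjusted p between 0.0642 and 0.168).

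Of the flux regulators, Pdk1 passed with UTP only, at 0.60 ± 0.15 log2 units higher in KO (edgeR adjusted p = 0.0268), and its untreated value was 0.22 ± 0.14 (edgeR adjusted p = 0.298). The WT libraries with UTP that are low in this comparison are the same ones that are low in the UTP comparison, and the difference between these 2 genotype effects is, gene by gene, the difference of UTP effects given above, which did not pass. Pfkfb3, which makes the activator of phosphofructokinase fructose 2,6-bisphosphate, had 855 to 1027 scaled counts in the 4 KO libraries and 760 to 852 in the 4 WT libraries, and did not pass (0.31 ± 0.10 with UTP, edgeR adjusted p = 0.0681). Its paralog Pfkfb4 had 351 to 433 scaled counts in KO libraries and 349 to 420 in WT libraries.

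The mitophagy receptor genes Bnip3 and Bnip3l, whose products mark mitochondria for removal, were higher in KO with UTP by small amounts. Bnip3 had 618 and 651 scaled counts in KO libraries with UTP and 560 and 624 in untreated KO libraries, against 500 and 472 in WT libraries with UTP and 507 and 442 in untreated WT libraries. Bnip3l had 2109 and 2147 scaled counts in KO libraries with UTP and 2161 and 1975 in untreated KO libraries, against 1839 and 1846 in WT libraries with UTP and 1879 and 1872 in untreated WT libraries. All KO libraries were above all WT libraries for both genes. Both passed with UTP, Bnip3 at 0.39 ± 0.10 and Bnip3l at 0.21 ± 0.06 (edgeR adjusted p = 0.0306 and 0.0342), and neither passed untreated, Bnip3 at 0.32 ± 0.10 and Bnip3l at 0.14 ± 0.06 (edgeR adjusted p = 0.055 and 0.11). Higd1a, a mitochondrial gene of the same role group, ran the other way, with 537 to 564 scaled counts in KO libraries and 571 to 618 in WT libraries, and did not pass.

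The oxygen-sensing genes showed no difference past the test. Egln1, the main prolyl hydroxylase that marks HIF subunits, was the steadiest of the 34 members, with 1145 to 1245 scaled counts and a coefficient of variation of 2.91%. Egln3, which HIF induces, had 646 to 747 scaled counts in KO libraries and 548 to 769 in WT libraries, whose untreated pools spanned the whole range. Kdm3a, a histone demethylase gene induced by HIF, had 1024 to 1185 scaled counts in KO libraries and 989 to 1095 in WT libraries. Its log2 fold change was 0.02 ± 0.07 with UTP and 0.21 ± 0.07 untreated (edgeR adjusted p = 0.896 and 0.0573).

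Ndrg1, a stress and differentiation gene that hypoxia induces, had 1037 and 935 scaled counts in KO libraries with UTP and 1156 and 1015 in untreated KO libraries, against 707 and 782 in WT libraries with UTP and 717 and 795 in untreated WT libraries. No KO value reached down to a WT value. The log2 fold change was 0.41 ± 0.09 with UTP and 0.52 ± 0.09 untreated (edgeR adjusted p = 0.0183 and 0.00825). Adm, the gene of the vasodilator hormone adrenomedullin, had 7736 and 7251 scaled counts in KO libraries with UTP and 7747 and 6569 in untreated KO libraries, against 6478 and 6386 in WT libraries with UTP and 6163 and 5480 in untreated WT libraries. The lowest KO library was only just above the highest WT library, and Adm passed untreated (0.29 ± 0.09, edgeR adjusted p = 0.0481) and not with UTP (0.22 ± 0.09, edgeR adjusted p = 0.118). Adm lies 9.6 Mb from P2ry2 on chromosome 7, the nearest of the 5 members on that chromosome; Aldoa and Bnip3 are 25.8 and 37.9 Mb away.

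Car9 was 0.64 ± 0.20 log2 units higher in KO with UTP and 0.63 ± 0.19 higher untreated, near the threshold on either side of it (edgeR adjusted p = 0.0638 and 0.0493), from at most 99 scaled counts. Ddit4 had higher values in every KO library than in every WT library and did not pass (edgeR adjusted p = 0.282 with UTP and 0.0667 untreated). The collagen hydroxylase genes P4ha1 and P4ha2 did not pass either: P4ha1 had 6002 to 6466 scaled counts in KO libraries and 6265 to 6780 in WT libraries, and P4ha2 had 2278 to 2952 and 2651 to 2814. The spread of P4ha2 was the spread between the KO pools.

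**Figure D5:**
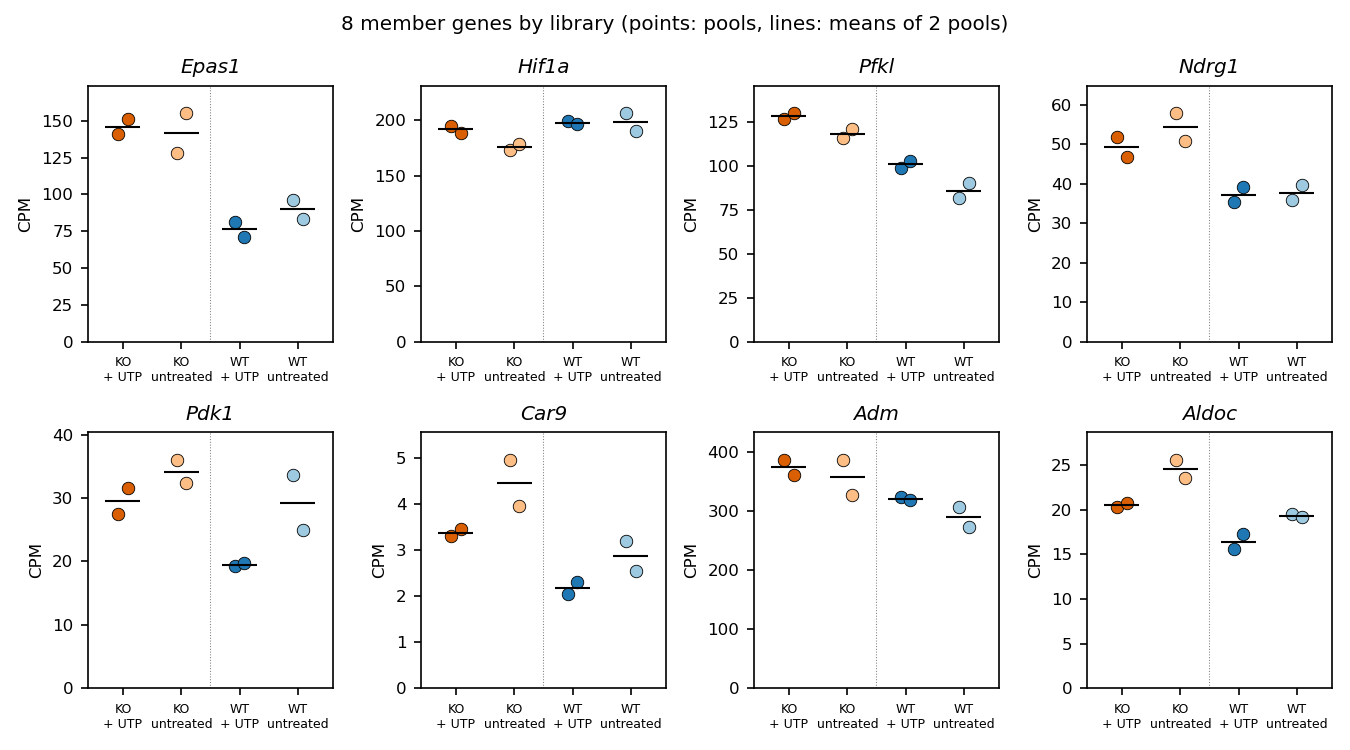
CPM of 8 of the members in every library; points are pools, lines are means of 2 pools, and each vertical axis starts at 0. Epas1 lies at 128 to 155 CPM in the 4 KO libraries and 71.2 to 96.5 CPM in the 4 WT libraries, while Hif1a overlaps between the genotypes and Pdk1 is low in the WT libraries with UTP.

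The genotype counts depended on single pools. In untreated libraries the 8 members became 2 (Pfkl and Epas1) without untreated KO pool 1, 4 without untreated KO pool 2, and 5 without WT pool 1 with UTP, WT pool 2 with UTP or KO pool 2 with UTP. With UTP the 9 members became 1 (Epas1) without either WT pool with UTP, 2 without KO pool 1 with UTP and 3 without KO pool 2 with UTP. The count over all genes shrank as well, to 720 genes in place of 3628 without untreated KO pool 1 and to 640 in place of 3053 without WT pool 2 with UTP. The KO pools numbered 1 are the ones with almost no Xist reads. With both of them left out together, a setting chosen after seeing the data, 1 member (Epas1, 1.00 ± 0.12) passed with UTP and 2 (Epas1, 0.80 ± 0.12, and Pfkl, 0.51 ± 0.08) passed untreated (edgeR adjusted p between 0.026 and 0.0432), where 663 and 335 of all genes did. Each KO group then has a single pool, which is assumed to vary like the WT groups. Under UTP in WT, 0 members became 4 (Pfkl, Pfkp, Pdk1 and Ddit4) without untreated WT pool 2, where the count over all genes was 2403 in place of 214. Without untreated WT pool 1, the pool that stood apart, the counts were 0 under UTP in WT, 10 in KO against WT untreated and 10 with UTP, where 128, 2859 and 4095 of all genes passed.

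Other genes of the same pathways give the setting. Of 33 further glycolysis and gluconeogenesis genes, 26 were tested, and with UTP in WT only Hk3 passed. Hk3, a hexokinase gene of myeloid cells, had 741 and 577 scaled counts in WT libraries with UTP against 1675 and 1286 in untreated WT libraries, a log2 fold change of -1.17 ± 0.17 (edgeR adjusted p = 0.0288). In the same comparison 15 of 20 macrophage markers were lower and 0 higher, with a median of -1.41, and whether fewer such cells or less RNA per cell were present cannot be told apart. Hk3 was also 1.17 ± 0.17 higher in KO than in WT with UTP (edgeR adjusted p = 0.00424), where 19 of the 20 macrophage markers were higher. Within KO, Hk3 had 1427 and 1521 scaled counts with UTP against 2224 and 1711 untreated, and its UTP effect did not pass. In all, 2 of the 26 genes were higher and 0 lower in KO with UTP, and 1 was higher and 2 were lower in untreated KO. The shares of all genes that passed there were 17.4% and 20.7%.

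Of 50 further HIF target genes, 48 were tested. With UTP 0 passed in KO, and in WT 0 were higher and 2 were lower, the lysyl hydroxylase gene Plod1 (-0.35 ± 0.06) and Pgm2l1 (-0.97 ± 0.16, edgeR adjusted p = 0.0447 and 0.0365). Both also had lower values with UTP in KO, without overlap. Plod1 had 2282 and 2413 scaled counts there against 3161 and 3091 untreated, and Pgm2l1 had 262 and 316 against 449 and 448. The test of the difference between the UTP effects called 0 of the 48. Between genotypes they went both ways: 8 were higher and 3 lower in KO with UTP, and 9 were higher and 7 lower in untreated KO, with medians of 0.06 and 0.02. Of all genes, 17.4% passed with UTP (9.52% higher, 7.9% lower) and 20.7% untreated (10.5% higher, 10.2% lower). Whether the list differs from these shares was not tested. The glucose transporter gene Slc2a1 was 0.24 ± 0.06 higher with UTP and 0.32 ± 0.06 higher untreated, and the lactate exporter gene Slc16a3 was 0.41 ± 0.10 and 0.37 ± 0.10 higher (edgeR adjusted p from 0.0141 to 0.0383). Epo, the erythropoietin gene, had 45 and 32 scaled counts in KO libraries with UTP and 40 and 34 in untreated KO libraries, against 12 and 18 in WT libraries with UTP and 7 and 15 in untreated WT libraries. All its KO values were above all its WT values, and it passed in both comparisons (1.36 ± 0.36 and 1.74 ± 0.38, edgeR adjusted p = 0.0341 and 0.0171). Vegfa, the endothelial growth factor gene, was lower in KO with UTP, at 2824 and 3123 scaled counts against 4144 and 3937 in WT (-0.44 ± 0.10, edgeR adjusted p = 0.0247). The collagen-modifying genes Plod2, Lox and Loxl2 were lower in untreated KO, by -0.53 ± 0.09, -0.37 ± 0.08 and -0.31 ± 0.08 (edgeR adjusted p = 0.00879, 0.0183 and 0.0272).

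Of 17 listed components of HIF control, 15 were tested and 0 passed with UTP in either genotype. In untreated KO the HIF partner gene Arnt2 and the prolyl hydroxylase gene Egln2 were higher (0.27 ± 0.06 and 0.46 ± 0.09) and the ubiquitin ligase genes Cul2 and Eloc were lower (-0.26 ± 0.06 and -0.29 ± 0.08, edgeR adjusted p from 0.0136 to 0.0361). With UTP the coactivator gene Crebbp was lower in KO (-0.29 ± 0.05, edgeR adjusted p = 0.0089). Of all genes, 20.7% passed untreated and 17.4% with UTP.

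The study grouped 9 genes of these libraries under a response to hypoxia, and none of them is among the 34 members. As they were chosen on these samples, their direction is not independent evidence. Only 3 of the 9 reached the minimum level, and 0 passed with UTP in either genotype by edgeR, with 3 in WT and 0 in KO under an unadjusted p of 0.05. P2rx2, an ATP-gated channel gene, had 36 and 34 scaled counts in WT libraries with UTP against 2 and 19 in untreated WT libraries, so that the untreated pools disagreed, and 2 and 2 in KO libraries with UTP against 4 and 3 in untreated KO libraries. Casp1, the inflammatory caspase gene, had 192 and 154 scaled counts in WT libraries with UTP against 452 and 283 in untreated WT libraries. Its KO values were 350 and 374 with UTP against 437 and 421 untreated. In KO against WT with UTP, P2rx2 was lower (-4.04 ± 0.79) and Casp1 higher (1.07 ± 0.21, edgeR adjusted p = 0.0117 and 0.0127). In untreated libraries 0 of the 3 passed between genotypes.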

How the data were processed

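RNA was extracted from cultured cells and sequenced as poly(A)-selected, strand-specific libraries of paired 100-base reads. Per the submitters' processing notes, Trimmomatic, STAR and HTSeq were used with build GRCm38.p4 (mm10); versions and the strand setting are not given in the sources used here. The authors deposited estimated counts per gene that were scaled by 1 factor per library (0.9084 to 1.0753 as recovered from the values) and rounded up; these were analysed as counts, and undoing the scaling was an alternative. The 15 names stored as dates were set back to gene symbols, and a second, low row named Aldoa (7 to 11 scaled counts) was kept apart. Reads shared with near-identical copies or pseudogenes of members (for example of Gapdh, Pgk1, Ldha and Pgam1) were not measured, so the levels of those members are uncertain to that extent.

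Genes with over 0.5 CPM in at least 2 of 8 libraries were tested with edgeR 4.0.16 (R 4.3.3; TMM, quasi-likelihood F test, a model of 4 groups with 4 residual degrees of freedom) in 5 comparisons: UTP in each genotype, the difference of those effects, and KO over WT with and without UTP. The Benjamini-Hochberg adjustment ran over every gene tested, with a threshold of 0.05. The SE was taken from the fold change and the F statistic, and 95% intervals use the fit's degrees of freedom. They measure the spread between pools; with 2 against 2 an exact permutation test cannot go below p = 0.333. Levels per kb use the length of the union of a gene's annotated exons in GENCODE M21, and promoter sequences are from RefSeq (GRCm38.p6). Other settings were DESeq2 1.42.0, limma 3.58.1 with trend on log2(CPM + 1), plain library sizes instead of TMM, a minimum of 0 or 2 CPM, a block for the replicate number, the groups compared alone, and leaving out each library; leaving out both KO pools numbered 1 was added after seeing the data. Library values are named for members that pass edgeR in any comparison, for the 3 highest and 3 lowest in each UTP comparison and for Hif1a and Epas1; genes of other lists are named only where they pass. The members and lists were chosen with earlier results of these data known.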

Additional observations from a re-analysis of the deposited data

How the results depend on the processing

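No called difference of a member changed its sign under any setting. With UTP in WT, the 0 members called became 1 with DESeq2 and 1 with no minimum level, and 0 to 4 when 1 library was left out. With UTP in KO and for the difference of the UTP effects, the count was 0 throughout. KO against WT untreated gave 5 members in place of 8 with DESeq2 and 3 when only the 4 untreated libraries were fitted, and 2 to 10 when 1 library was left out; KO against WT with UTP gave 1 to 10 in place of 9 when 1 library was left out. Leaving out 1 library leaves its group with a single pool, which is then assumed to vary like the other groups. Under the fold change rule in KO, 0 to 1 members passed when 1 library was left out. The replicate number as a block gave 0, 0 and 0 members for the UTP comparisons and their difference, 7 for KO against WT untreated and 9 with UTP. The labels do not say what the numbers stand for, and the correlation of same-numbered deviations was 0.451 between the KO groups, 0.029 between the WT groups and -0.098 and -0.09 across genotypes with and without UTP. Over the 16 other settings (each library left out singly among them), 35 of 128 values of the called members (27.3%) lost the call in KO against WT untreated and 39 of 144 (27.1%) with UTP, and 10 and 10 values of members not called gained one. Without both KO pools numbered 1, chosen after seeing the data, 2 members passed untreated and 1 with UTP. Counts under 100 limit Ankrd37 and Car9; for the other members the 2 pools per group set the precision. Over all genes, DESeq2 called 558 genes with UTP in WT, 108 with UTP in KO, 6 for the difference and 2156 in KO against WT untreated, in place of 214, 6, 0 and 3628, and no minimum level gave 1083, 319 and 28 for the first 3 of these. Fitting only the groups compared gave 2, 3 and 1346 for UTP in WT, UTP in KO and KO against WT untreated. It raised the count for KO against WT with UTP, to 4195 genes in place of 3053 and 12 members in place of 9. The difference needs all groups.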
